A study of Homo sapiens with 12 samples.

Results

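Nascent transcription of 8 genes was read in Mia PaCa-2, a cell line from a human pancreatic carcinoma. SMAD4, ARID1A, GATA6 and KDM6A are genes that are often altered in pancreatic cancer, and CDKN2A, CDKN2B, CDKN2B-AS1 and MTAP lie next to each other on chromosome band 9p21. They were chosen by name and are 8 of the 28278 genes of the raw count tables. The tables of the libraries labelled MED30 list 25056 genes, 7 of the 8 among them, and give no row for CDKN2B-AS1.

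The assay was PRO-seq (precision run-on sequencing), in which engaged RNA polymerases extend their transcripts in isolated nuclei and the new RNA is sequenced. In all, 12 libraries came from 3 Mia PaCa-2 lines with an integrated Dox-inducible MED30, MYC-3xHA or both (labelled MED30, MYC and MED30&MYC), each with no Dox as the control or with 0.5 μg/ml Dox, labelled OE, and 2 libraries in each of the 6 groups. The induction lasted 1 day by the methods and 2 days by the text of the study. Control and OE libraries alike carried the integrated vector, which drives its insert from Tet operators and confers puromycin resistance, and whether a line is 1 clone is not given in the sources used here. Whether the 2 libraries of a group are from different cultures is not given, and p-values therefore reflect no more than the variation among these libraries, which may be technical.

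The 8 raw count libraries held 20616713 to 29881914 counts, except MED30&MYC control 2 with 1257499. The values labelled MED30 are scaled and rounded, so their depth is unknown. MED30 rose with Dox under all 3 labels, by 4.45 to 4.78 on the log2 scale, whereas MYC rose by 1.16 in MED30&MYC and, against the label, dropped by 0.57 in the MYC-labelled OE libraries (adjusted p = 7.65e-05 by edgeR). The MED30 values also stood at a nearly fixed ratio to the MYC-labelled counts (median 0.271 over 5888 well-covered genes), and the log ratios of replicate 1 to 2 correlated between these tables across genes (r = 0.919 in controls and 0.931 in OE). Responses under the labels MED30 and MYC are therefore not independent of each other. Of 6 markers of carcinoma epithelium, KRT18 held 4646, KRT8 714, KRT19 270 and CDH1 22.7 counts per kb summed over the 8 libraries. EPCAM held only 6.49 and KRT7 9.46. Of 4 mesenchymal markers, VIM held 14695, ZEB1 192 and FN1 130, but CDH2 only 0.745. Of 5 leukocyte markers 4 lay below 10, with CD14 at 148. Of 6 endothelial and fibroblast markers 3 lay below 10, with COL1A2 at 851, CDH5 at 15.3 and COL1A1 at 11.9. Of 5 islet markers INS and GCG were at 0 and SST at 0.674, whereas PPY held 13.5 and CHGA 166 counts per kb, and of 6 acinar markers 3 lay below 10, with CTRB1 at 325, CPA1 at 180.2 and AMY2A at 34.1.

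CDKN2A encodes the cell cycle inhibitor p16INK4a and, from another first exon, p14ARF. p16INK4a and the product of CDKN2B, p15INK4b, bind and inhibit the kinases CDK4 and CDK6, which otherwise inactivate RB. MTAP, next to CDKN2A, is the enzyme that recycles methylthioadenosine in methionine salvage, and it is often lost together with CDKN2A in tumours. SMAD4 is the shared partner of the receptor-regulated SMADs in TGF-beta and BMP signalling. ARID1A is the DNA-binding subunit of BAF-type SWI/SNF chromatin remodelling complexes, KDM6A removes methyl groups from lysine 27 of histone H3 within KMT2C and KMT2D complexes, and GATA6 is a transcription factor of the endoderm that marks the classical subtype of pancreatic cancer.

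The 8 genes fell into a transcribed pair and 6 genes with hardly any counts. ARID1A held 436 and SMAD4 311 counts per kb of gene span, summed over the 8 raw count libraries, more than 83.4% and 75.9% of the 18871 protein-coding genes with a span. GATA6 held 5.80, KDM6A 3.39, CDKN2B-AS1 1.87, MTAP 1.66 and CDKN2A 1.27 counts per kb, and CDKN2B held 0. Below 10 counts per kb lay 5 of the 7 protein-coding genes of the set, against 30.4% of all protein-coding genes. A level of 0 was reached by 8.63% of all protein-coding genes.

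Per kb and library, ARID1A ranged from 1.82 to 3.11 CPM (counts scaled to library size by TMM) and SMAD4 from 1.15 to 2.58, and ARID1A was the higher of the pair in 8 of 8 libraries. GATA6 came next with a median of 0.0228 CPM per kb, 0.931% of the median of ARID1A, and a range from 0 to 0.0661. KDM6A, with a range from 0.00958 to 0.0278, was lower than GATA6 in 6 of 8 libraries, so these neighbours in the order overlapped. KDM6A exceeded CDKN2B-AS1 (0.00551 to 0.0167) in 8 of 8 libraries. CDKN2B-AS1 and MTAP (0.00424 to 0.0128), and MTAP and CDKN2A (0 to 0.0136), were each ordered the same way in only 6 of 8 libraries and did not differ beyond their spread.

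**Figure D1:**
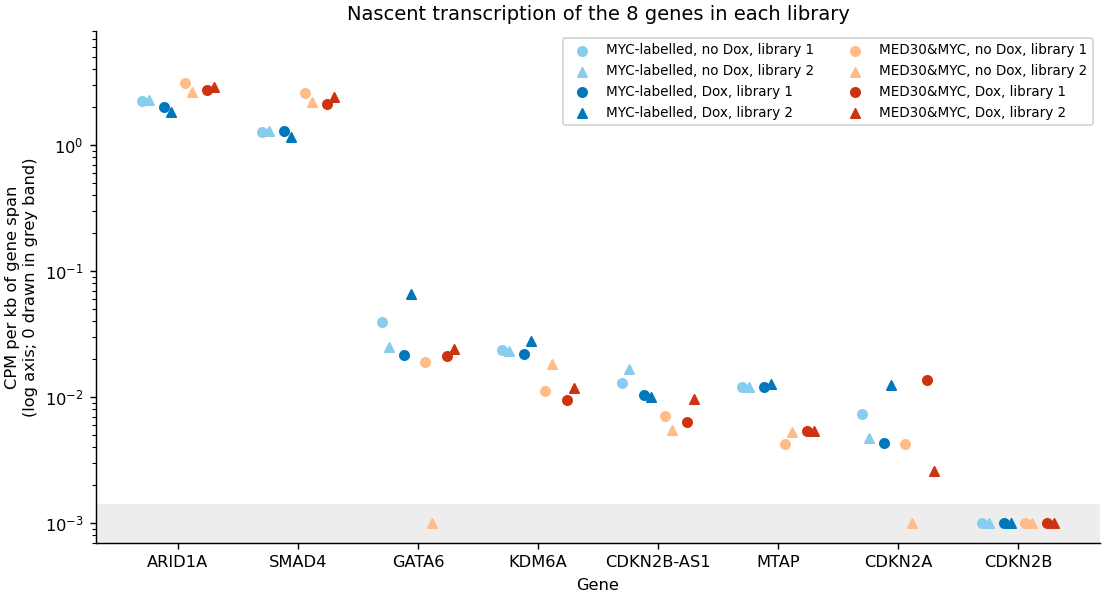
CPM per kb of gene span (log axis, values of 0 drawn in the grey band) of the 8 genes in the 8 raw count libraries, circles for library 1 and triangles for library 2 of each group. ARID1A and SMAD4 lie above 1 in every library, and no value of the other genes exceeds 0.0661.

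The 300 bases around the annotated start (250 before and 50 after it) are shown for a transcribed gene, SMAD4, and for KDM6A and MTAP, whose levels were low while other genes of their pathways were transcribed. The sequences are RefSeq's on GRCh38.p14, all on the plus strand, 5′ to 3′, and capitals mark the E-box CACGTG, which MYC-MAX dimers bind, and the CCAAT box, in either direction.
SMAD4 promoter, chr18:51029963-51030262: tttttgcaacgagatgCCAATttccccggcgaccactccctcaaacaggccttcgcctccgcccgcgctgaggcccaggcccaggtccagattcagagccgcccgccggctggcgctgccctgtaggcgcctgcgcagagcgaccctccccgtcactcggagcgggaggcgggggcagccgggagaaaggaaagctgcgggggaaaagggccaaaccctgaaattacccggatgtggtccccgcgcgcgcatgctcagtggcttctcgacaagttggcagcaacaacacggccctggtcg
KDM6A promoter, chrX:44872938-44873237: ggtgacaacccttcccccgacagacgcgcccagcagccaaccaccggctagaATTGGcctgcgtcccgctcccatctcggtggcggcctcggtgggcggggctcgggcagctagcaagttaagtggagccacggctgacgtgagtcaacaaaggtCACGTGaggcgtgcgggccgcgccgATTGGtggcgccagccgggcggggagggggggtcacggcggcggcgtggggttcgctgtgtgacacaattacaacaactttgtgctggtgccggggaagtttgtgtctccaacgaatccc
MTAP promoter, chr9:21802386-21802685: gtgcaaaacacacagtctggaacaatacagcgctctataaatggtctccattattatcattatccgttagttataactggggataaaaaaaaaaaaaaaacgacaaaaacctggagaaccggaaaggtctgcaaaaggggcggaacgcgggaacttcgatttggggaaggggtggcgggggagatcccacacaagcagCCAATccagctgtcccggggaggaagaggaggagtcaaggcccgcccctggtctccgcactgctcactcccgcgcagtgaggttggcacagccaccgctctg
KDM6A was the only one of the 8 genes with a CACGTG in this window, 95 bases before the start. The motif occurs in 7.43% of 27305 promoters of the same length. A CCAAT box lies in the windows of SMAD4, KDM6A, MTAP and GATA6, and in 35.7% of all promoters. G and C made up 66.7% of the SMAD4 window, 66.3% of that of KDM6A and 53% of that of MTAP, against a median of 58.3%. A motif match describes the letters only.

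CDKN2A (chromosome 9, 21967752 to 21995324, minus strand, GRCh38) held 5 and 3 counts in the MYC-labelled controls, 3 and 11 in the MYC-labelled OE libraries, 3 and 0 in the MED30&MYC controls and 8 and 2 in the MED30&MYC OE libraries. In the libraries labelled MED30 it was listed at 0 in 4 of 4. The counts overlapped between all groups. The highest count, 11 in the deepest library, was 0.347 CPM, and the highest CPM was 0.375, in MED30&MYC OE library 1. The gene did not pass the filter on low counts and was not tested.

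CDKN2B (22002903 to 22009313, minus strand) held 0 counts in 8 of 8 raw count libraries, which allows up to 0.100 to 0.146 CPM in the deep libraries and 2.39 CPM in MED30&MYC control 2 (3 counts per library, counting error only). This 0 carries little information. The gene lies wholly within CDKN2B-AS1 on the opposite strand. All 8 raw count tables listed 0 for 87.8% of 1653 genes that lie within another gene on the other strand, and for 15.4% of 25334 remaining genes. The difference was smaller in the tables labelled MED30 (32.4% against 18%), and there CDKN2B had a scaled value of 1 in control 1 and of 0 in the other libraries. The methods state sense-strand counting, but with so many nested genes at 0 it is not certain that the raw counts kept the strand, and reads of CDKN2B, CDKN2B-AS1 and the overlapping end of CDKN2A may not be told apart.

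CDKN2B-AS1, the long non-coding RNA also known as ANRIL, spans 21994791 to 22128142 on the plus strand and overlaps CDKN2A by 534 bases. Its counts were 43 and 51 in the MYC-labelled controls, 35 and 42 in the OE libraries, 24 and 1 in the MED30&MYC controls and 18 and 36 in the OE libraries. Its span is 133 kb, and its highest level, 0.0167 CPM per kb, was that of MYC-labelled control 2.

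MTAP (21802636 to 21941115, plus strand) held 41 and 38 counts in the MYC-labelled controls, 42 and 56 in the OE libraries, 15 and 1 in the MED30&MYC controls and 16 and 21 in the OE libraries. Its scaled value was 4 in each of the 4 libraries labelled MED30. The other genes listed with methionine salvage and polyamine metabolism, regulators and PRMT5 among them, were transcribed, with none of 15 below 10 counts per kb. The lowest of them, ENOPH1, held 155 counts per kb, and their median was 547, against 1.66 for MTAP. PRMT5, the methyltransferase that methylthioadenosine inhibits, held 262 and MAT2A, which makes S-adenosylmethionine, 10364 counts per kb.

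The low level was shared by the whole neighbourhood. From SLC24A2 to LINC01241, 40 genes in a row lay below 10 counts per kb, 28 of them protein-coding and 24 at 0. The row is bounded by ACER2 (74.3 counts per kb), an alkaline ceramidase, and CAAP1 (233), an apoptosis regulator, whose spans are 7.39 Mb apart. Its highest gene was MIR31HG, the host transcript of miR-31, with 6.86 counts per kb. FOCAD held 1.97, MLLT3, a subunit of the super elongation complex, 1.27, KLHL9, a mitotic ubiquitin ligase adaptor, 2.44, and ELAVL2, a neuronal RNA-binding protein, 2.82 counts per kb. Of the 24 genes at 0, 17 are type I interferon genes or pseudogenes, which are short and mostly silent in unstimulated cells, and 8 lie inside another gene. RPS6, a ribosomal protein gene whose left end lies at -2.59 Mb from that of CDKN2A, held 3852 counts per kb.

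Long stretches of this kind were not peculiar to 9p21. Among 4234 stretches of genes below 10 counts per kb in the genome, 15 were at least as long as the one around CDKN2A, itself included. With itself included, 9 had at least as many protein-coding genes. Centromeres and gene-poor regions were not set apart. The limit of 10 was chosen after these levels had been seen. At 5 counts per kb MIR31HG ends the stretch on the left, which leaves 13 genes over 5.28 Mb, and at 20 it is the same stretch as at 10. Genes that are silent and genes that are deleted cannot be told apart from these counts, and the few reads that did fall on the stretch were not examined by position.

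**Figure D2:**
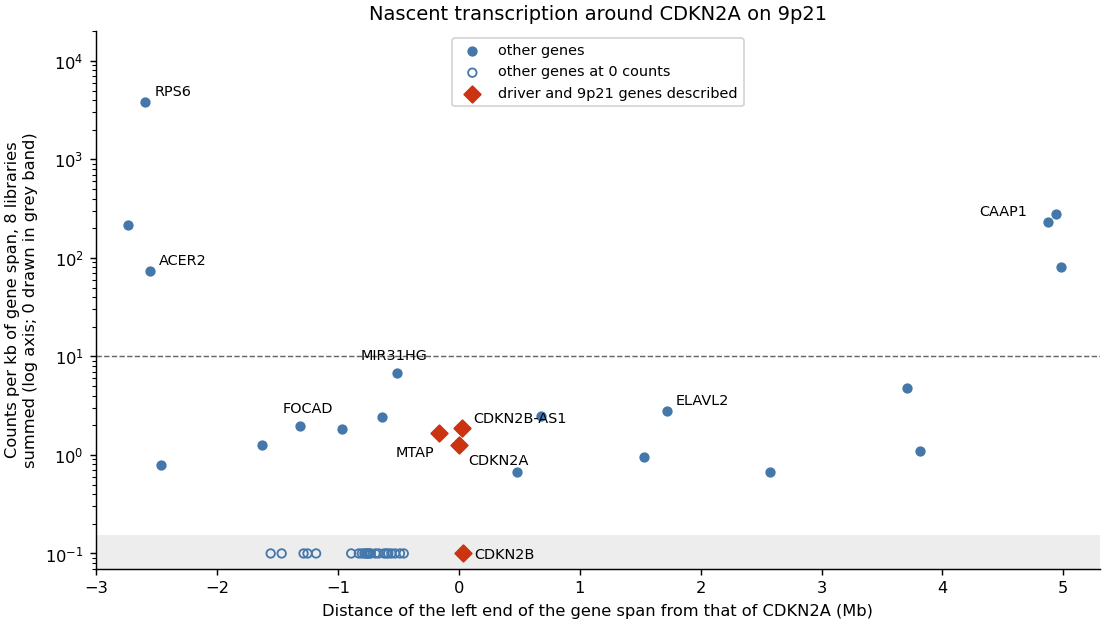
Counts per kb of gene span, summed over the 8 raw count libraries (log axis, 0 drawn in the grey band, dashed line at 10), against the distance of each gene's left end from that of CDKN2A. Between ACER2 at 74.3 and CAAP1 at 233 no gene exceeds 6.86.

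The low genes stood at other ratios between the tables labelled MED30 and MYC than the transcribed ones. With SMAD4 and ARID1A, the sum of the MED30 values over the sum of the MYC-labelled counts was 0.275 and 0.276, like the 0.271 of well-covered genes. It was 0.210 for GATA6, 0.0904 for MTAP, 0.0361 for KDM6A and 0 for CDKN2A, whose 22 counts had no counterpart. Over the 2706 genes below 10 counts per kb with at least 40 MYC-labelled counts the median was 0.0598, so that low genes in general had lower MED30 values for their MYC-labelled counts. Whether both labels stand for the same libraries is not known, and the part of the counting in the levels of the 6 low genes was not tested.

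KDM6A (chromosome X, 44873188 to 45112779, plus strand) held 139 and 128 counts in the MYC-labelled controls, 132 and 211 in the OE libraries, 69 and 6 in the MED30&MYC controls and 49 and 79 in the OE libraries. In the libraries labelled MED30 its scaled values were 6, 6, 5 and 5. These counts lie on a span of 240 kb, and the level of 3.39 counts per kb exceeded that of 24% of protein-coding genes. The complexes it belongs to and the machinery of its mark were transcribed: none of 20 genes of the KMT2 complexes, the demethylase KDM6B and PRC2, which writes the mark that KDM6A removes, lay below 82.8 counts per kb. KMT2C held 333, KMT2D 383, PAXIP1 298 and KDM6B, the other H3K27 demethylase, 1433 counts per kb.

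KDM6A, too, lay among low genes. From MAOB to DIPK2B, 8 genes (7 protein-coding, 3 at 0) held at most 3.88 counts per kb, the value of EFHC2, and FUNDC1, a mitophagy receptor of the outer mitochondrial membrane, held 3.64. Beyond them lay MAOA, a monoamine oxidase, at 117 and LINC01204 at 1533 counts per kb, 1.76 Mb apart. In the genome 288 stretches, this one included, were at least as long, and this one kept its limits at 5 and at 20 counts per kb. This neighbourhood and that of GATA6 were looked at after the levels were known.

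GATA6 (chromosome 18, 22169589 to 22202528, plus strand) held 32 and 19 counts in the MYC-labelled controls, 18 and 69 in the OE libraries, 16 and 0 in the MED30&MYC controls and 15 and 22 in the OE libraries. MYC-labelled OE library 2 stood above every other library, and the scaled values labelled MED30 had the same shape, with 6 and 4 in the controls and 5 and 14 in the OE libraries. The stretch around GATA6 held 6 low genes. MIR133A1HG, MIR133A1 and MIR1-2, all at 0 in the raw counts, lie inside the span of MIB1 (172 counts per kb), a ubiquitin ligase of Notch ligands. Like that of CDKN2B, a 0 inside another gene carries little information. In the libraries labelled MED30, the scaled values of MIR133A1HG summed to 203. GATA6-AS1, GATA6 and CTAGE1 lie in the 1.04 Mb between MIB1 and RBBP8 (134), a DNA end resection factor. Of 21 genes of the classical pancreatic lineage, 11 lay below 10 counts per kb, among them PDX1 (5.38), HNF4A (2.45) and FOXA2 (1.56), while GATA4 (110.4), ELF3 (205) and MUC1 (399) lay above. Of 11 basal-like and mesenchymal genes 7 lay below 10, with KRT5 and LY6D at 0, while VIM (14695), TP63 (1202), ZEB1 (192) and S100A2 (192) lay above.

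**Figure D3:**
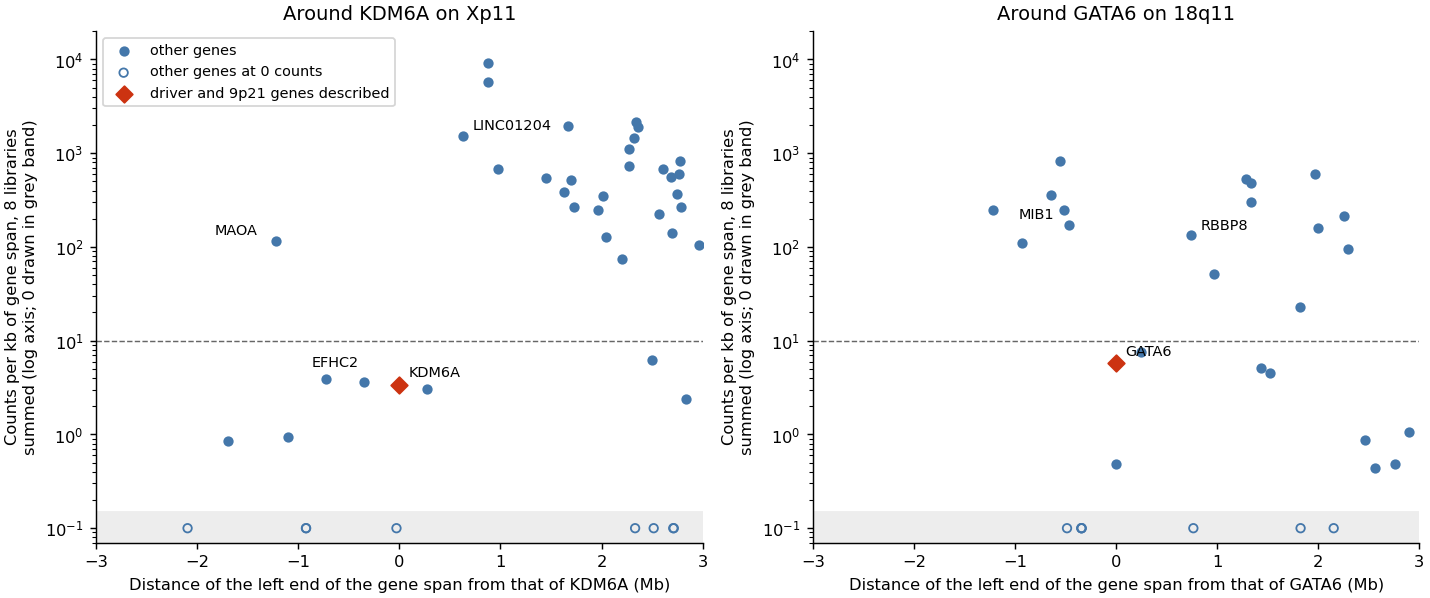
Counts per kb of gene span, summed over the 8 raw count libraries (log axis, 0 drawn in the grey band, dashed line at 10), around KDM6A (left) and GATA6 (right). KDM6A at 3.39 lies in a row of 8 low genes between MAOA and LINC01204. GATA6 at 5.80 lies in a row of 6 that starts inside the MIB1 span and ends before RBBP8.

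None of the 8 genes passed the test for a response to Dox under any label. A gene was called at an adjusted p under 0.05 (Benjamini-Hochberg over all genes tested), by edgeR's quasi-likelihood test for the raw counts and by limma for the MED30 values. Called were 0 of 6 tested in the libraries labelled MYC, where 13% of all genes were called, 0 of 6 in MED30&MYC, where 6.74% were, and 0 of 2 (SMAD4 and ARID1A) in MED30, where 16% were. At an unadjusted p under 0.05 ARID1A was the only one, in the libraries labelled MYC and MED30. The test of a difference between the responses of MED30&MYC and of the MYC-labelled line called 0 of 6, at a background of 1.07%, with 0 of 6 at an unadjusted p under 0.05 (12.5% of all genes). At an unadjusted p under 0.05 stood 25.6% of all genes under the label MYC, 19.3% under MED30&MYC and 31.9% under MED30. DESeq2, run on the raw counts, called none of the members for these Dox responses or their difference either, but gave no adjusted p for several of the low genes.

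ARID1A (chromosome 1, 26696015 to 26782104, plus strand) came closest. It stood at 194 and 194 CPM in the MYC-labelled controls and at 172 and 156 CPM in the OE libraries, so that the groups did not overlap. The log2 fold change was -0.24 (95% interval -0.43 to -0.05, edgeR adjusted p = 0.0912). On the MED30 values it went from 213 and 212 to 190.3 and 179 CPM, a difference of -0.20 on the scale of log2 of the value plus 1 (limma adjusted p = 0.0591). In MED30&MYC the controls, at 268 and 228 CPM, enclosed the OE libraries at 234 and 247 (-0.07, interval -0.27 to 0.13, edgeR adjusted p = 0.780). ARID1A was called in the MYC-labelled libraries without OE library 1 (edgeR adjusted p = 0.0240) or either MED30&MYC control (0.0428 and 0.0431), or with the replicate numbers crossed as a block (0.0369), a setting chosen after the data were seen, and over all 16 alternatives the adjusted p ran from 0.0240 to 0.521. On the MED30 values it was called with the crossed block (limma adjusted p = 0.0217), and also without either OE library. Leaving out single libraries put the MED30 difference at -0.25 to -0.16. Under both labels, such refits can leave 1 library in a group, and their calls over all genes shifted widely.

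SMAD4 (chromosome 18, 51030213 to 51085042, plus strand) held 69.5 and 71.6 CPM in the MYC-labelled controls and 71.2 and 63.2 in the OE libraries. Under MED30&MYC the controls held 141 and 119.8 CPM and the OE libraries 116 and 131. The groups overlapped under both labels, as they did on the MED30 values, with 75.9 and 78.0 in the controls and 77.7 and 72.5 in OE. The intervals of the log2 fold change were -0.27 to 0.13, -0.33 to 0.08 and -0.20 to 0.13, that is, folds from 0.793 to 1.10 over all labels.

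For the low genes the intervals were wide. GATA6 differed by 0.47 in the MYC-labelled libraries (interval -0.46 to 1.39, edgeR adjusted p = 0.574), a value that rests on OE library 2 and turned to -0.55 without it. KDM6A differed by 0.09 (interval -0.35 to 0.54), MTAP by 0.05 (-0.67 to 0.77) and CDKN2B-AS1 by -0.54 (-1.28 to 0.19), with edgeR adjusted p values from 0.369 to 0.951. In MED30&MYC the widest interval of these 4 genes was that of GATA6, from -0.94 to 1.68. Of the 4, KDM6A had the narrowest interval, which in the MYC-labelled libraries spans folds from 0.785 to 1.45, while for GATA6 it spans folds from 0.729 to 2.63.

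**Figure D4:**
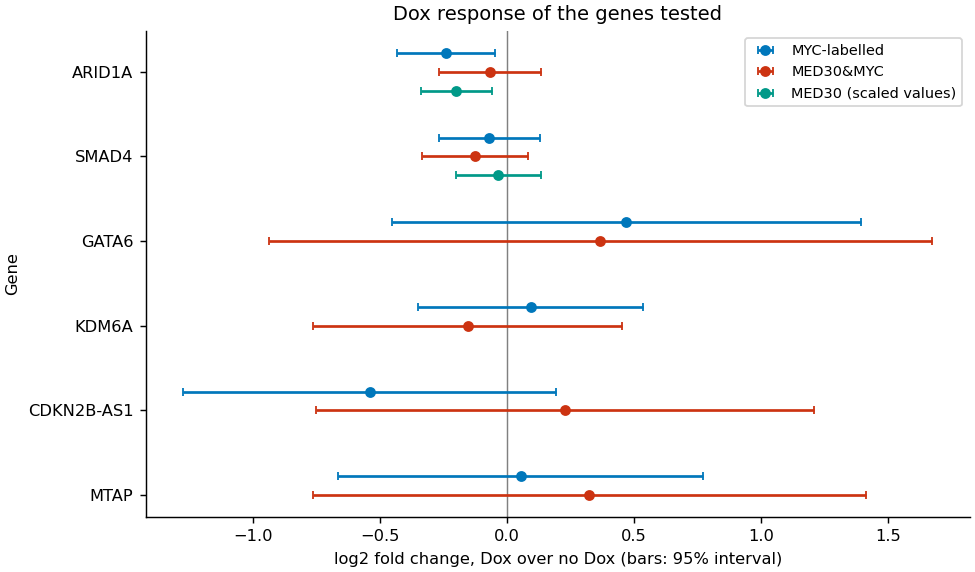
Log2 fold change of Dox over no Dox, with its 95% interval, for the genes that passed the filter on low counts under each label. The intervals of ARID1A under the labels MYC (-0.43 to -0.05) and MED30 (-0.34 to -0.06) lie below 0, and all others include 0.

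In the pathways around these genes some members did respond. Over all genes, 5.32% rose and 7.71% fell under the label MYC, 3.65% rose and 3.09% fell under MED30&MYC, and 7.37% rose and 8.67% fell under MED30. Of 29 TGF-beta and SMAD signalling genes, 1 rose and 5 fell under the label MYC, and 1 rose and 3 fell under MED30&MYC. The median log2 change of the list was -0.15 and -0.02, against 0.01 and 0.02 over all genes. PMEPA1, a TGF-beta target that sequesters SMADs, fell by 1.25 (SE 0.10, edgeR adjusted p = 1.37e-10) in the libraries labelled MYC and by 1.20 (SE 0.14, edgeR adjusted p = 9.50e-07) in MED30&MYC. The ubiquitin ligases SMURF2 and NEDD4L, which act on SMADs and TGF-beta receptors, fell by 0.59 and 0.49 in the MYC-labelled libraries. TGFBR2, the type II receptor of TGF-beta, held only 2.75 counts per kb.

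Among 22 genes of the CDK4/6 and RB axis 2 rose and 3 fell in the MYC-labelled libraries, and 1 rose in MED30&MYC. CDKN1A, the CDK inhibitor p21, rose by 0.91 (SE 0.11, edgeR adjusted p = 7.33e-07), and CDK6 and CDKN1B, the inhibitor p27, fell by 0.65 and 0.60. CCND3, a D-type cyclin, rose by 0.62 in MED30&MYC, from controls that lay apart (40.9 ± 12.2 CPM, SD, n = 2), and by 1.15 without control 1. The INK4 genes outside 9p21, CDKN2C and CDKN2D, were transcribed at 241 and 178 counts per kb. The median of the list was -0.03 and 0.02 under these labels.

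Of 26 SWI/SNF subunits 4 fell in the MYC-labelled libraries, among them SMARCD2 (-0.41), PHF10 (-0.38) and BRD9 (-0.34). In MED30&MYC 2 rose, ACTL6B (1.62), the neuronal actin-like subunit, and ARID2 (0.33), the PBAF counterpart of ARID1A. ACTL6B rose from low controls (1.09 ± 0.50 CPM, SD, n = 2), and its value ran from 1.56 to 2.56 over 16 alternatives. ARID1B, the paralogue of ARID1A, held 1.55 counts per kb. Of the 20 genes around KDM6A, PHF19 fell by 0.29 in the MYC-labelled libraries, and KDM6B rose by 0.70 (SE 0.12, edgeR adjusted p = 0.000269) in MED30&MYC. Of 15 genes of methionine salvage and polyamine metabolism 4 fell under the label MYC and 2 under MED30&MYC, with APIP, an enzyme downstream of MTAP, at -0.53 and -0.54. The medians of these lists under the labels MYC and MED30&MYC were -0.11 and -0.00024 for SWI/SNF, -0.02 and -0.02 for the KMT2, KDM6B and PRC2 list and -0.23 and -0.12 for methionine salvage.

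Of 16 classical lineage genes tested none was called under either label, and of 5 basal-like and mesenchymal genes 3 and 1 fell, VIM by 0.59 and 0.54. Among 31 other recurrently altered genes 1 rose and 4 fell in the MYC-labelled libraries, and 3 rose in MED30&MYC, ATM by 0.50, STK11 by 0.62 and ARID2. Of 13 neighbours of SMAD4 MEX3C fell by 0.47 in the MYC-labelled libraries and SKA1 by 0.51 in MED30&MYC, and of 9 neighbours at 9p21 none was called. The medians under the labels MYC and MED30&MYC were 0.08 and 0.11 for the classical genes, -0.37 and -0.20 for the basal-like and mesenchymal ones and -0.03 and 0.03 for the other altered genes. On the MED30 values the numbers of rising and falling genes were 1 and 6 for TGF-beta, 2 and 4 for the RB axis, 0 and 2 for SWI/SNF, 0 and 0 for the KMT2, KDM6B and PRC2 list, 0 and 5 for methionine salvage, 1 and 0 for the classical and 0 and 2 for the basal-like genes, 2 and 3 for the other altered genes, 0 and 1 for the neighbours of SMAD4 and 0 and 0 at 9p21. No gene of any list was called in the difference between MED30&MYC and the MYC-labelled line, where 0.714% of all genes were called with a higher and 0.357% with a lower response in MED30&MYC. The list counts moved with single libraries. Under the label MYC the TGF-beta calls went from 6 to 3 without either control and to 10 without OE library 1, the SWI/SNF calls from 4 to 0 without control 1, 1 without control 2 and 5 without OE library 1, and the methionine salvage calls from 4 to 1 without either control, OE library 2 or either MED30&MYC OE library and to 6 without OE library 1. Under MED30&MYC the TGF-beta calls ran from 1 to 5 and the SWI/SNF calls from 0 without MED30&MYC control 1 to 7 without MYC-labelled OE library 2. On the MED30 values TGF-beta ran from 3 without either control to 17 without OE library 1, and SWI/SNF from 0 to 12 likewise. Of the genes named with a value here, only PMEPA1, SMURF2, NEDD4L, CDKN1A, CDK6, CDKN1B, APIP, MEX3C and VIM in the MYC-labelled libraries and CCND3 in MED30&MYC were called under all 16 alternatives, and PHF19, SKA1 and ARID2 were called under 6, 7 and 9 of them.

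The controls of the lines differed widely, with 60.2% of all genes called between the MED30&MYC and the MYC-labelled controls (30% higher and 30.2% lower in MED30&MYC). The line and the batch of its libraries cannot be told apart here. SMAD4 stood at 131 ± 15.1 CPM in the MED30&MYC controls and at 70.5 ± 1.48 in the MYC-labelled ones (SD, n = 2 each), a fold of 1.91 (log2 0.93, SE 0.10, edgeR adjusted p = 7.03e-09). The OE libraries showed the same order, 116 and 131 against 71.2 and 63.2 CPM. Without any one library the value stayed between 0.75 and 1.01, and it was called each time.

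ARID1A was higher by 0.38 in the MED30&MYC controls (edgeR adjusted p = 0.00146), but not called without MED30&MYC control 1 (0.22, edgeR adjusted p = 0.182). KDM6A was lower by 0.96 (edgeR adjusted p = 0.00430), MTAP by 1.46 (0.0123) and CDKN2B-AS1 by 1.10 (0.0401), and GATA6 did not pass (-0.88, interval -2.14 to 0.39). Without MED30&MYC control 1, which leaves the shallow control, KDM6A (-0.36), MTAP (-1.18) and CDKN2B-AS1 (-1.43) were no longer called, with edgeR adjusted p values from 0.442 to 0.677. MTAP also lost its call without MYC-labelled control 1 (edgeR adjusted p = 0.0632) or 2 (0.0610), and CDKN2B-AS1 without control 1 (0.0743) or 2 (0.226) of the MYC-labelled line or control 2 of MED30&MYC (0.0574). Low genes as a class were lower in the MED30&MYC controls, with a median of -0.62 over 3336 genes below 10 counts per kb, against 0.04 over 15092 others. The low 9p21 neighbours ELAVL2 (-2.74), MLLT3 (-1.66), MIR31HG (-1.01) and FOCAD (-0.97) were lower too, whereas of the transcribed genes beyond CAAP1 PLAA was lower by 0.46 and IFT74 higher by 0.45.

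Higher levels in the MED30&MYC controls extended beyond SMAD4 on the chromosome. Of 21 tested genes within 3 Mb of SMAD4, 12 were higher and 3 lower, with a median of 0.58, against -0.06 over all genes. Entries that overlap were counted separately, such as RPL17 within RPL17-C18orf32, which was higher (0.91). The 3 lower ones were RPL17 (-1.32), a ribosomal protein gene, SMAD7 (-1.03), the inhibitory SMAD, and CTIF (-0.83), a translation initiation factor. In a list of 13 neighbours chosen by name, which leaves these out, 9 were higher and 0 lower, with a median of 0.76, and 5 were called without MED30&MYC control 1. The higher ones included ELAC1 (1.14), a tRNA-processing nuclease next to SMAD4, MEX3C (0.88), an RNA-binding ubiquitin ligase, DCC (0.84), the netrin receptor, ME2 (0.80), the mitochondrial malic enzyme, and ACAA2 (0.76), a thiolase of fatty acid oxidation. The 13 genes of at least 100 counts per kb within 2.5 Mb of SMAD4 had a median of 0.69. Windows of this kind around 10266 genes of the genome had a median of 0.01, and 1.65% of them were as high, while the window of ARID1A, at 0.02, lay near the middle (48.9% as high). These windows overlap and differ in their number of genes (13 for SMAD4, 60 for ARID1A). The shares are therefore a description and no p-values. The 259 genes tested on chromosome 18 had a median of 0.06. The limits used next coincide with a run of higher medians of 5-Mb bins in these same values. The split they make is therefore a description and no test. From 5 Mb before to 25 Mb after SMAD4 lay 45 other genes of at least 100 counts per kb. Of these, 29 were higher and 7 lower, with a median of 0.60, so the higher levels were not confined to the vicinity of SMAD4. Of the 89 remaining such genes on the chromosome, 33 were higher and 22 lower, with a median of 0.08. Over all 10665 genes of at least 100 counts per kb, 3850 were higher and 3492 lower, with a median of 0.04. In bins of genes with another limit on counts, the one from -20 to -15 Mb was also high, at 0.59 over 20 genes. DNA copy number was not measured here, and its part in these levels was not tested.

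**Figure D5:**
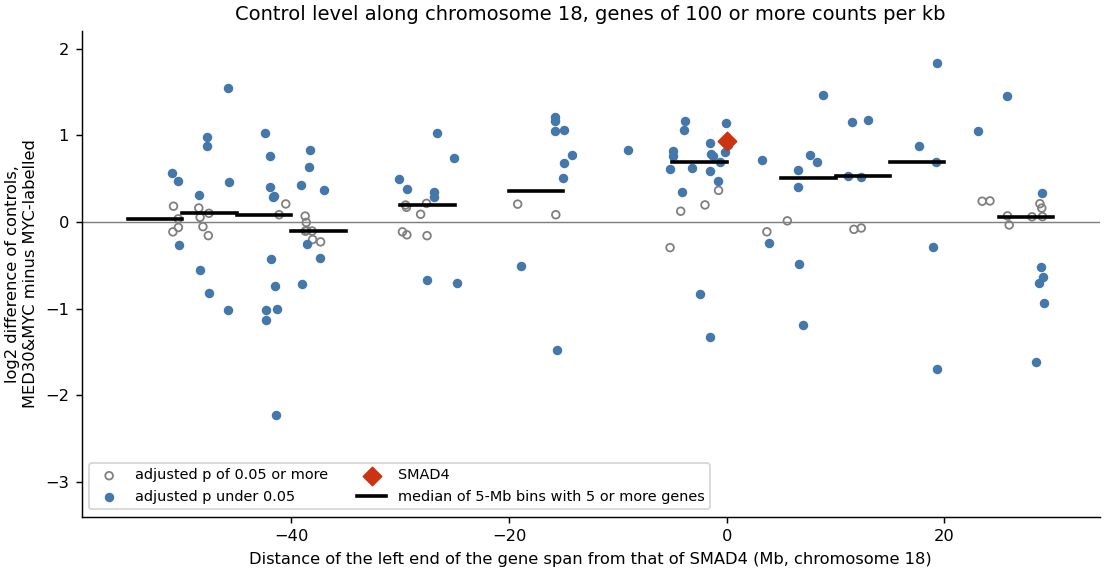
Log2 difference of the controls, MED30&MYC minus MYC-labelled, for genes of at least 100 counts per kb on chromosome 18, against the distance from SMAD4, with medians of 5-Mb bins of at least 5 genes as black bars. SMAD4 lies at 0.93 among mostly positive neighbours. The 45 other genes from 5 Mb before to 25 Mb after SMAD4 had a median of 0.60, and the 89 remaining genes 0.08. These limits coincide with a run of higher bin medians in the same control differences, so the split is no test.

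Other SMAD pathway genes differed in both directions between the controls, with 10 of 29 higher and 12 lower. Over all genes 30% were higher and 30.2% lower. PMEPA1 (-2.73), ID2 (-4.04), ID3 (-2.06), which are BMP or TGF-beta targets, and SMAD3 (-1.21) were lower, and the receptors ACVR1B (1.06) and BMPR1A (0.74) and SMAD1 (1.40) and SMAD2 (0.62) were higher, in MED30&MYC. Of 26 SWI/SNF subunits 10 were higher and 12 lower. The list of KMT2 complexes, KDM6B and PRC2 included 8 higher and 3 lower genes of 20 (4 called in all without MED30&MYC control 1), with KDM6B lower by 2.52 and DPY30 higher by 1.45.

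Among the genes whose log2 CPM followed each member most closely over the 8 raw count libraries were, for SMAD4, ORC3, PPP2R5A and TMEM33, for ARID1A, NCOA2, and for KDM6A, MGAT2, PCED1B and LGR5 (Pearson r of 0.993 to 0.999, a description over 8 libraries that share lines and depths). For MTAP they were TSC2, FGFR1 and SH2D6 (r of 0.998), for GATA6 MIR548F3, HSD17B1 and CASR (r of 0.990), and for CDKN2B-AS1 LOC102723313, NUP98 and NPIPB5 (r of 0.971 to 0.972).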

How the data were processed

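PRO-seq libraries of 12 samples were grouped by the titles in their labels. Per the submitters' processing notes and the methods, the authors used Trim Galore, Bowtie2 with hg38 (its version is not given), featureCounts 2.0.3 (stated to count sense-strand reads of each gene body, which the raw counts leave uncertain), and DESeq2 2.11.40.8. The 8 deposited tables labelled MYC and MED30&MYC hold raw counts. In the 4 deposited tables labelled MED30 each entry is a score: whole numbers with nearly equal totals, read here as values that were scaled and rounded before deposit by a factor the sources do not give, and not tested as counts. No spike-in values were used, so changes are relative to other genes. Of the MED30 rows, 11 named by numbers (0.0777% to 0.0823% of the values) were left out, and 153 older symbols were matched.

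In R 4.3.3, edgeR 4.0.16 was run on the raw counts (glmQLFit and glmQLFTest after filterByExpr and TMM, 4 groups of 2 in one fit) and limma 3.58.1 (trend) on the MED30 values after TMM scaling and log2 with a pseudocount of 1, keeping genes at 10 or more in 2 or more libraries. Benjamini-Hochberg adjustment ran over all genes tested, with a threshold of 0.05. Gene spans and promoters were RefSeq's (GRCh38.p14, the assembly of hg38), with spans for 26987 of 28278 genes; counts per kb are per span. The members, lists and tests were chosen with earlier results of these data known. Named were all 8 members, genes of 9p21 and those that overlap a member, up to 3 called genes of each list and comparison by smallest p, and the 3 genes most like each member; other genes, named for their level, their call or their place near a member, were chosen after values were seen. A few genes that the rule names are not reported here. Alternatives were other scalings and filters, DESeq2 1.42.0, other sets of libraries, a replicate block and leaving out each library. The scripts were tested on simulated data.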

Additional observations from a re-analysis of the deposited data

How the results depend on the processing

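Of 351 refits of the tests of the members that gave an adjusted p, 313 kept direction and side of the threshold, 13 lost a call, 7 gained one and 18 changed sign, all of the last among values that were not called. Library size alone moved the median of all genes by 0.15 under the label MYC and by 0.10 (total alone) under MED30, turned the SMAD4 response to 0.076 and 0.066, and raised the share of calls that rose from 40.8% to 76.7% and from 45.9% to 73%; it also put the share of higher calls in the difference of responses at 43.4%, against 66.7%. The replicate numbers did not pair the samples (log ratios of replicate 1 to 2 correlated at -0.20, -0.18 and -0.26 between control and OE). The replicate block gave 1814, 929 and 2521 called genes for MYC, MED30&MYC and MED30, against 2518, 1302 and 2368, put the CDKN2B-AS1 response in MED30&MYC at -0.00024 and the GATA6 difference at 0.038 (0.043 by DESeq2), and CDKN2B-AS1 lost its control call (-1.06). Crossed numbers, a block added after the data were seen, gave 3445, 1685 and 4014 called genes, with ARID1A called at -0.24 and -0.20. The control call of CDKN2B-AS1 was also lost with library size alone (-1.03) and by DESeq2 (-1.16), and that of MTAP by DESeq2 (-1.49).

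Calls moved to 2155 (edgeR) and 655 (DESeq2) in fits of the 4 MED30&MYC libraries, to 327 (library size alone) and 316 (no filter), from 207, for the difference, and to 367 without a filter for MED30. Leaving out each library gave 778 to 4168 called genes for MYC, 166 to 2410 for MED30&MYC, 18 to 876 for the difference, 5729 to 12482 for the control level and 764 to 6767 for MED30. The members' values that changed sign, call or size most then ran as follows. In the libraries labelled MYC, SMAD4 ran from -0.16 to 0.036, ARID1A from -0.31 to -0.15, GATA6 from -0.55 to 1.02 and KDM6A from -0.071 to 0.24. In MED30&MYC, SMAD4 ran from -0.21 to 0.062, ARID1A from -0.16 to 0.10, CDKN2B-AS1 from -0.13 to 0.57, KDM6A from -0.75 to -0.018, MTAP from 0.049 to 0.35 and GATA6 from 0.25 to 7.07. For the difference, SMAD4 ran from -0.19 to 0.13, MTAP from -0.0029 to 0.30, KDM6A from -0.84 to -0.076 and GATA6 from -0.66 to 6.60. For the control level, CDKN2B-AS1 ran from -1.43 to -0.91, MTAP from -1.48 to -1.18, ARID1A from 0.22 to 0.47, KDM6A from -1.04 to -0.36 and GATA6 from -7.57 to -0.53. The GATA6 values of 7.07, 6.60 and -7.57 are those without MED30&MYC control 1, against a control at 0 counts, and are no bounds. On the MED30 values SMAD4 ran from -0.090 to 0.015 and ARID1A from -0.25 to -0.16. Depth limits the low genes and MED30&MYC control 2; the causes of these shifts were not tested.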
